A study of Urocitellus parryii with 3 samples.

Results

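The miR-99, miR-100 and miR-125 family was followed across 3 stages of the year in livers of a hibernator, Urocitellus parryii (arctic ground squirrel). The members were the 5 mouse miRNA entries mmu-miR-99a, mmu-miR-99b, mmu-miR-100, mmu-miR-125a-5p and mmu-miR-125b-5p (written without the species prefix from here on), picked by name as genomic cluster partners of let-7, of 567 mouse entries on the array. The stages were early arousal, when a torpid animal rewarms, late torpor (spelled late topor in the labels), when metabolism and body temperature are low, and post-reproduction, outside the hibernation season. The sources used here do not give the animals' age or their number. Each stage was 1 pool, mixed from equal amounts of liver total RNA of its animals, labelled with Cy3 and hybridised to 1 array of probes for mouse miRNAs. No difference below therefore has a replicate check, no p-value was computed, and errors describe the spread of spots on an array only.

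miRNAs are short RNAs that lower the translation and stability of mRNAs matching their seed, the bases near the 5′ end. miR-99a, miR-99b and miR-100 share a seed and are known to act on mTOR, a kinase that couples growth to nutrients. miR-125a-5p and miR-125b-5p share another seed and are the mammalian relatives of lin-4, the developmental timing RNA of worms. The let-7 family, with which both are co-transcribed, marks differentiated cells. In liver, loss of miR-99a and of miR-125b is known from hepatocellular carcinoma.

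The members lie in 3 mammalian clusters, each with a miR-99 or miR-100 gene, a let-7 gene and a miR-125 gene. The array's annotation gives mouse coordinates on the mm9 build, and no gene, exon or intron for them. The target of miR-99a lies at chr16:77599188-77599206 and that of miR-125b-5p at chr16:77646529-77646545, so the chromosome 16 cluster spans 47.4 kb. The target of miR-100 lies at chr9:41339523-41339541. miR-125b-3p, an opposite arm, has its target at the other end of that 50.6 kb cluster, which also makes miR-125b-5p, so signal for miR-125b-5p cannot be assigned to chromosome 9 or 16. On chromosome 17, miR-99b at 17967164 to 17967179 and miR-125a-5p at 17967786 to 17967804 flank let-7e within 641 bases. Each member had 2 nested probes, the longer of which covers 1 more base of the target, and each probe had 10 spots. miR-99a and miR-100 are nearly the same in sequence, as are miR-125a-5p and miR-125b-5p, and a sharing of signal between their probes was not tested. Nor were the squirrel's own sequences compared with the mouse probes.

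All 3 arrays lay on 1 slide, and a stage cannot be told apart from its pool and its place on that slide. Between 143 and 158 mouse miRNAs were detected per array, and 135 were measured, meaning that at least 1 probe was detected on all 3 arrays (most of its spots well above background). The median negative control spot lay at 1.21 to 1.69 intensity units over 672 spots, with an SD of 3.61, 4.13 and 11.6 on the early arousal, late torpor and post-reproduction arrays. All 4 hepatocyte miRNAs of the marker list (miR-122, miR-192, miR-194 and miR-148a) were measured. Of the 3 neural miRNAs, miR-124 and miR-9 were detected on no array, while miR-128 was measured, with a log2 difference of 0.59 between late torpor and post-reproduction. Of the 3 muscle miRNAs, 0 were measured.

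All 5 members were measured, and their levels stayed within a narrow band over the 3 stages. The range of the scaled log2 intensity over the stages was 0.25 for miR-125a-5p and miR-125b-5p, 0.27 for miR-99a, 0.28 for miR-99b and 0.42 for miR-100, which is 1.19-fold to 1.34-fold. Over all 135 measured miRNAs the median range was 0.36, with quartiles of 0.24 and 0.56. The ranges of 4 members thus lay below that median, and 79 of the 135 had a smaller range than miR-100. Levels are on a log2 scale relative to the array's 75th percentile of detected probes, and intensities in the next paragraphs are as deposited, before that scaling.

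miR-100 varied most. On its longer probe the deposited intensity was 319 ± 13.1 (SD over 10 spots) in early arousal, 354 ± 7.43 (8 spots) in late torpor and 293 ± 10.9 (10 spots) after reproduction. The late torpor spots, from 337 to 360, did not overlap the 292 to 334 of early arousal or the 272 to 312 of post-reproduction, and the latter groups overlapped. The shorter probe had 104 ± 4.69 (10 spots), 117 ± 7.79 (9 spots) and 102 ± 6.56 (9 spots) in the same order, and its spots overlapped between all arrays. Separated spots were not particular to miR-100. Those of the longer let-7b probe, 1070 to 1283, 1363 to 1614 and 1753 to 1967 in the same order, did not overlap. The share over all measured miRNAs is not given here. Scaled, the level of miR-100 was -0.78 ± 0.017 (SE from spots) in late torpor, -0.94 ± 0.014 in early arousal and -1.20 ± 0.017 in post-reproduction, and each step exceeded the spot error.

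miR-99a, the close relative of miR-100, followed another order. Its longer probe had 440.0 ± 23.7 (10 spots) in early arousal, 502 ± 22.3 (10 spots) in late torpor and 479 ± 17.5 (9 spots) in post-reproduction, with overlapping spots on all arrays except between early arousal and late torpor, where the brightest early arousal spot (463.3) lay just under the dimmest of late torpor (463.7). Its shorter probe had 98.3 ± 4.79 (9 spots), 125 ± 4.06 (8 spots) and 133 ± 5.63 (10 spots), so early arousal was lowest on both probes but the probes did not order the other stages alike. On the shorter probe the early arousal spots (91.8 to 106) lay below those of late torpor (118 to 131) and post-reproduction (124 to 140), which overlapped. As for miR-100, the share of such separation over all measured miRNAs is not given. The scaled level was -0.48 ± 0.013 in late torpor, -0.66 ± 0.013 in post-reproduction and -0.75 ± 0.017 in early arousal. The last pair was set apart by the shorter probe alone: its difference of early arousal from post-reproduction was -0.25, and that of the longer probe was 0.063.

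miR-125b-5p was near level in early arousal and late torpor and lower in post-reproduction. The longer probe had 1578 ± 69.2 units in early arousal, 1621 ± 47.7 units in late torpor and 1549.7 ± 56.2 units after reproduction, over 10 spots each, and these spots overlapped between all arrays. The shorter probe had 154 ± 5.76 (9 spots), 144 ± 5.42 (10 spots) and 143 ± 8.07 (10 spots). The scaled levels were 0.49 ± 0.014, 0.47 ± 0.011 and 0.24 ± 0.015 in the same order. Early arousal and late torpor did not differ beyond spot error. Part of the gap to post-reproduction comes from the scaling, since the 75th percentile of that array was 398 units against 350.4 and 349. Without scaling, post-reproduction was still lowest, by 0.067 against early arousal and 0.039 against late torpor on the log2 scale.

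The chromosome 17 members were dim, and only the longer probe of each was detected. miR-99b had 11.7 ± 1.35 units in early arousal, 13.3 ± 2.39 units in late torpor and 12.5 ± 2.02 units after reproduction over 10 spots each, of which 9, 10 and 9 were well above background. On these arrays 11, 6 and 14 of the 672 negative control spots were at least as bright as that mean. The spots overlapped between all arrays, and scaled levels of -4.91 ± 0.052, -4.74 ± 0.082 and -5.01 ± 0.070 gave late torpor, early arousal and post-reproduction as the order from high to low. Only the outer pair of that order differed by more than 2 standard errors. miR-125a-5p had 22.7 ± 2.12, 26.8 ± 1.51 and 26.1 ± 3.77 units, with 10 of 10 spots well above background on each array and overlapping spots. Of the 672 negative control spots, 3, 1 and 8 were at least as bright as its mean on these arrays. The scaled level of miR-125a-5p was -3.71 ± 0.025 in late torpor, -3.95 ± 0.067 in post-reproduction and -3.96 ± 0.042 in early arousal, the last pair indistinguishable within spot error. The shorter probes stayed at 3.95 to 5.14 units for miR-99b and 6.09 to 7.34 units for miR-125a-5p and entered no level.

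**Figure D1:**
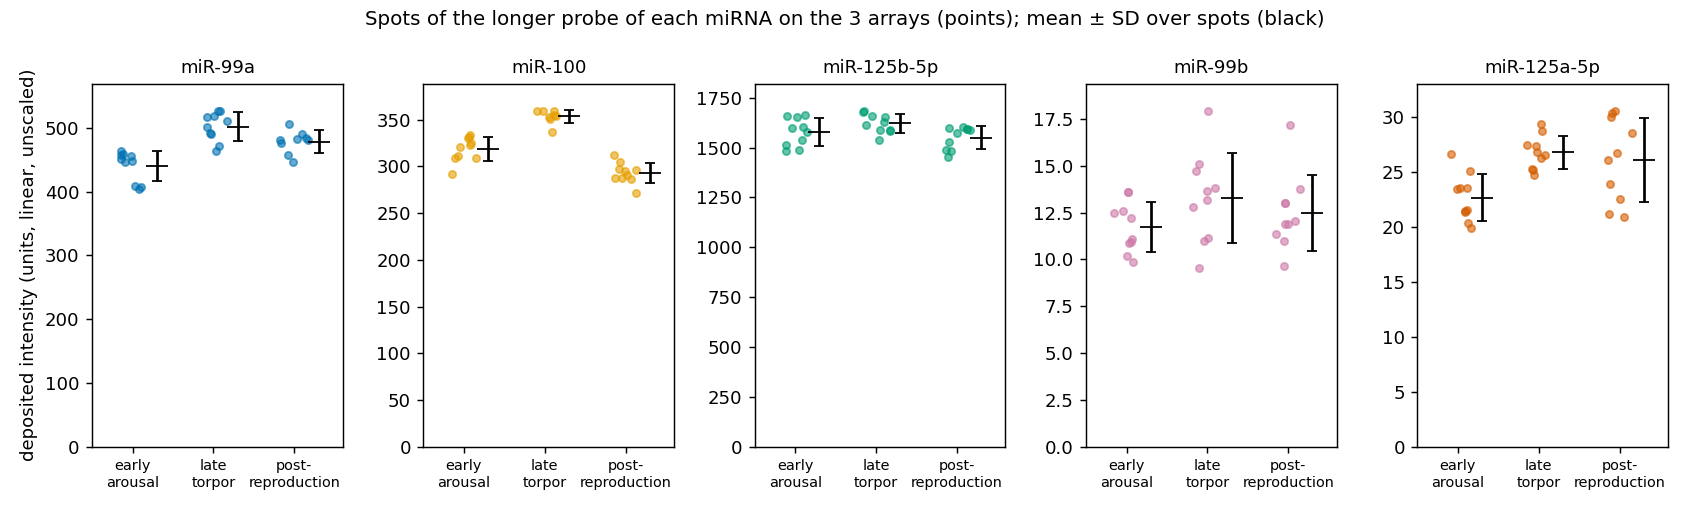
Deposited intensity (linear, unscaled, axes from 0) of each kept spot of the longer probe of the 5 miRNAs on the 3 arrays, with the mean and SD over spots in black. The late torpor spots of miR-100 (337 to 360) lie above those of the other arrays, while the spots of miR-125b-5p, miR-99b and miR-125a-5p overlap between arrays. Those of miR-99a overlap except between early arousal and late torpor. The spots of the shorter miR-100 probe, not drawn, overlap between all arrays. Separated spots were not particular to miR-100, and their share over all measured miRNAs is not given.

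The first comparison asked how late torpor differs from post-reproduction. All 5 members had a higher scaled level in late torpor, with a median log2 difference of 0.24, against 0.13 over all measured miRNAs, 65.2% of which were above 0. For miR-100 the ratio was 1.34-fold (1.30 to 1.39, the 95% interval that the spots give), with miR-99b 1.21-fold (1.05 to 1.40), miR-125a-5p 1.18-fold (1.07 to 1.30), miR-125b-5p 1.17-fold (1.14 to 1.20) and miR-99a 1.13-fold (1.10 to 1.16). In the order of all 135 differences, 109 were below that of miR-100 and 74 below that of miR-99a, and the other members stood between. No member passed the 2-fold rule (a log2 difference of at least 1, over 2 times its SE and of 1 sign in all measured probes), which 2.22% of measured miRNAs passed. With the size lowered to 0.25, miR-100 and miR-99b passed as higher (2 of 5, against 37.8% of measured miRNAs) and 0 of 5 as lower (14.1%). For miR-99b this rests on 1 dim probe, so the condition on the sign of its probes could not fail.

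The direction held for miR-100 under each of the 11 processing alternatives, with log2 differences from 0.13 to 0.46. That of miR-99a turned below 0 under 5 of them, to -0.083 at most, that of miR-125b-5p under 3, and those of miR-99b and miR-125a-5p under 1, with the total gene signal. Relative to the median of all measured miRNAs, which no shift of a whole array can move, miR-100 stood 0.29 higher and the others 0.049 to 0.14 higher. Over the alternatives that excess was 0.19 to 0.35 for miR-100, while it reached -0.056 for miR-99a with quantile normalization and 0 for miR-125a-5p with the total gene signal.

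The second comparison set early arousal against post-reproduction, and here the members parted. miR-100 was 1.20-fold higher (1.16 to 1.23) and miR-125b-5p 1.19-fold higher (1.16 to 1.22), both past the 0.25 size (2 of 5, against 28.1% of measured miRNAs higher and 22.2% lower). miR-99a was at -0.094 ± 0.022 (SE from spots), miR-125a-5p at -0.0089 ± 0.080 and miR-99b at 0.11 ± 0.087, the latter pair within 2 standard errors of 0. The members' median was 0.11, and 3 of 5 were above 0, against 0.062 and 55.6% over all measured miRNAs. No member passed the 2-fold rule, which 3.7% passed. miR-100 turned below 0 under 3 alternatives and miR-125b-5p under 4, both with the all-probe scaling, the all-spot scaling and strict detection. Relative to the median of measured miRNAs, both stayed above 0 under all 11 (0.14 to 0.25 and 0.13 to 0.20), though shifts of a whole array cannot move these values. With the all-probe and with the all-spot scaling 5 of 5 members were below 0.

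The last comparison was within the hibernation season, of early arousal with late torpor. It uses the same arrays as the other comparisons and adds no independent measurement. miR-99a was lower in early arousal by 0.27 on the log2 scale (1.21-fold), miR-125a-5p by 0.25 (1.19-fold) and miR-100 by 0.16. miR-99b was lower by 0.17, within 2 standard errors of 0. miR-125b-5p was at 0.023 ± 0.017 and its 2 probes went opposite ways (-0.045 and 0.090). The 4 lower members stayed lower under every alternative that gave a value, 11 for miR-99a, miR-100 and miR-125a-5p and 10 for miR-99b. These alternatives reuse the same arrays, and the size for miR-99b fell to -0.019. Relative to the median of measured miRNAs, miR-99b was lower under 9 of 10, and miR-99a, miR-100 and miR-125a-5p under all 11. The sign of miR-125b-5p turned under 4. The members' median was -0.17, against -0.094 over all measured miRNAs, of which 65.2% were below 0. miR-99a alone passed the 0.25 size as lower (1 of 5, against 23% of measured miRNAs), 0 of 5 as higher (11.9%), and no member passed the 2-fold rule (2.96%).

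**Figure D2:**
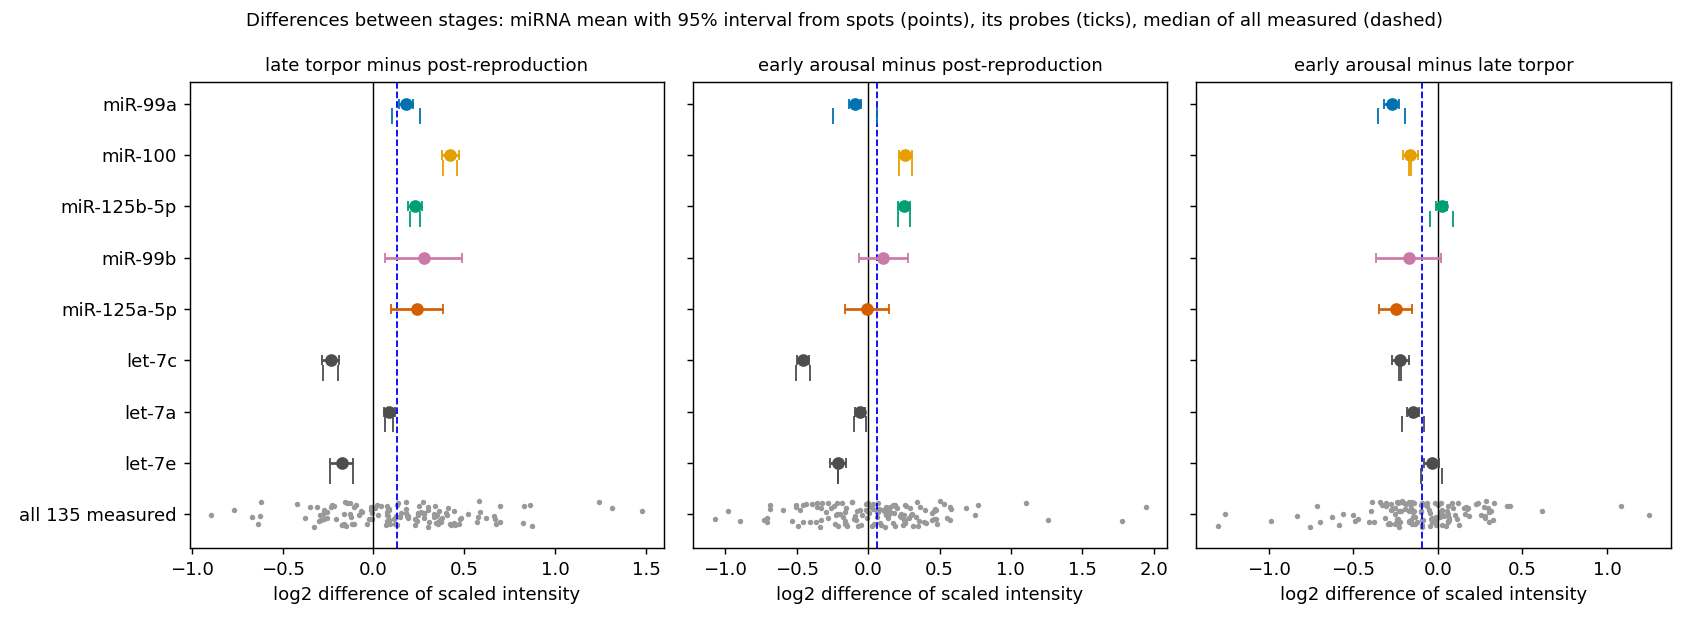
Log2 difference of scaled intensity in the 3 comparisons for the 5 miRNAs and let-7c, let-7a and let-7e of their clusters, with 95% intervals from spots, the probes as ticks, all 135 measured miRNAs as grey points and their median dashed. The family lies within the cloud of all miRNAs, from -0.27 to 0.42, with miR-100 0.29 above the dashed line in late torpor minus post-reproduction. let-7c lies at -0.46 in early arousal minus post-reproduction.

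Members were then set against each other on the same arrays, which removes any scaling that shifts a whole array. miR-99a and miR-125b-5p of the chromosome 16 cluster had a difference of differences of -0.049 ± 0.027 between late torpor and post-reproduction, with a spot interval that includes 0. In early arousal, miR-99a was lower relative to miR-125b-5p, by -0.35 ± 0.030 against post-reproduction and -0.30 ± 0.028 against late torpor. Those last values kept their sign under all 11 alternatives, but their size ranged from -0.46 to -0.15 and from -0.39 to -0.15, with the smallest when only the brightest probe of each miRNA was used. Alternatives that only shift whole arrays could not change these values. The near-identical pair miR-99a and miR-100 diverged too: miR-99a stood 0.24 ± 0.031 lower than miR-100 in late torpor minus post-reproduction (-0.24) and 0.35 ± 0.031 lower in early arousal minus post-reproduction (-0.35). miR-99b and miR-125a-5p of the chromosome 17 cluster did not separate beyond spot error in any comparison, with 0.035 ± 0.13, 0.11 ± 0.12 and 0.079 ± 0.11. Of the 10 pairs of members, 3, 5 and 4 had a spot interval that excluded 0 in the 3 comparisons. The same count was not taken over pairs of all measured miRNAs. Whether the members part more or less than other miRNAs was thus not tested.

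The let-7 miRNAs encoded in the same clusters had lower differences than the members against post-reproduction. Between early arousal and late torpor the medians were close, but single pairs parted in both directions. Against post-reproduction, let-7c was at -0.24 ± 0.025 in late torpor and -0.46 ± 0.022 in early arousal, let-7e at -0.17 ± 0.033 and -0.21 ± 0.029, and let-7a at 0.087 ± 0.015 and -0.060 ± 0.018. Each member exceeded its let-7 partner in both comparisons, in 6 of 6 pairs each time. The pairs reuse the same 3 let-7 miRNAs, and miR-125b-5p recurs, so they are not 6 separate checks. The excess was 0.14 to 0.47 in late torpor and 0.20 to 0.71 in early arousal, the largest for miR-125b-5p over let-7c. It was above 0 in 65 of 65 values over the alternatives in each of these comparisons, which share the post-reproduction array. Alternatives that only shift whole arrays repeat the same excess by construction, so these 65 values are not 65 separate checks. Most miRNAs exceeded let-7c as well: 19 of 135 had a lower difference than let-7c in late torpor and 14 in early arousal, while 61 and 52 were lower than let-7a. Most exceeded let-7e in late torpor too, where 23 of 135 were lower. Between early arousal and late torpor let-7c was at -0.22 ± 0.025, let-7a at -0.15 ± 0.018 and let-7e at -0.037 ± 0.022. Thus 3 of 3 were lower, as were 4 of 5 members and 65.2% of all measured miRNAs. The median of these let-7 was -0.15 and that of the members -0.17, and 2 of 6 pairs were above 0. The spot interval excluded 0 in 3 of 6 pairs, a count not taken over pairs of all measured miRNAs. Those 3 pairs were miR-125b-5p minus let-7c (0.24), miR-125b-5p minus let-7a (0.17) and miR-125a-5p minus let-7e (-0.21). Mature let-7a and let-7c are also made from other loci, and the array gives their targets on chromosomes 13 and 15, so these signals are not those of the clusters alone. The whole let-7 family of 9 measured entries had a median difference of 0.018 in late torpor and -0.21 in early arousal against post-reproduction. The first of these medians was below 0 under 8 of the 11 alternatives.

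No opposite arm of a member was detected. miR-99b*, miR-125a-3p, miR-125b* and miR-125b-3p were on the array with 4 probes each, and 0 of these probes were detected on any array. The probes of miR-125a-3p had 7.59 to 8.91 units on the early arousal array, 4.17 to 6.49 on that of late torpor and 1.50 to 3.77 on the third, with 1 spot per probe well above background in early arousal and 0 on the other arrays. All of these means lay below the lowest spot called well above background on the same array (10.1, 8.49 and 10.7 units), so they are given as values and no fold was taken. let-7c-1* and let-7c-2* were likewise detected on no array. miR-351, which shares the miR-125 seed, was detected on no array. Of the miR-10 relatives of the miR-99 group, miR-10a was measured and miR-10b was not. miR-10a had a difference of -0.13 ± 0.046 in late torpor and 0.15 ± 0.037 in early arousal against post-reproduction, and of 0.27 ± 0.051 between early arousal and late torpor. In that last comparison 4 of 5 members and 65.2% of all measured miRNAs were lower.

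For each member the 3 measured miRNAs with the most similar profile over the 3 arrays were found by the Euclidean distance between scaled log2 profiles, each centred on its own mean. They were miR-338-3p, miR-29c* and miR-29c for miR-99a (distances 0.017 to 0.072), miR-30e*, miR-25 and miR-340-5p for miR-100 (0.021 to 0.044), and miR-30d, miR-30a and miR-361 for miR-125b-5p (0.028 to 0.048). For miR-99b they were miR-122, miR-33 and miR-532-5p (0.048 to 0.056), and for miR-125a-5p miR-29c, miR-33 and miR-872 (0.011 to 0.058). With 3 points per profile many miRNAs are alike: 4 to 13 lay within 0.1 of each member. Among the members themselves, miR-99a and miR-125a-5p were closest (0.062), and miR-99a and miR-125b-5p farthest apart (0.26).

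Markers of other cell types moved between the arrays as well. In RNA from whole liver, fewer cells of a type and less RNA per cell cannot be told apart. The 3 red blood cell miRNAs (miR-144, miR-451 and miR-486), all measured, had a summed total gene signal of 2778 units in early arousal, 4615 units in late torpor and 2213 units after reproduction. On this unscaled measure the members' sums were 1946, 2085 and 1965 units. Both were thus brightest in late torpor, as were the leukocyte, endothelial and hepatocyte sums below. Of the 7 leukocyte miRNAs 6 were measured, with sums of 631, 883 and 721. Of the 5 mesenchymal miRNAs listed, the 4 found by name on the array (miR-143, miR-145, miR-199a-5p and miR-214) were measured, with sums of 165, 181 and 203. The 4 endothelial ones had 1668, 1839 and 1830.0. The median log2 difference between late torpor and post-reproduction was 1.31 for the red blood cell list, 0.37 for the leukocyte list, 0.029 for the mesenchymal list and 0.024 for the endothelial list. In the same order, 3, 5, 2 and 2 were higher and 0, 1, 2 and 2 lower. The medians near 0 thus hide opposite directions, from -0.42 to 0.35 in the endothelial list and from -0.16 to 0.079 in the mesenchymal list. The median was 0.27 for the hepatocyte list, of which 4 of 4 were higher, and 0.24 for the members, of which 5 of 5 were higher. Over all measured miRNAs the median was 0.13, and 65.2% were higher. The hepatocyte sums were 56643, 65471 and 57796 units in the same order of arrays. The part of any of these cells in the members' values was not tested.

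**Figure D3:**
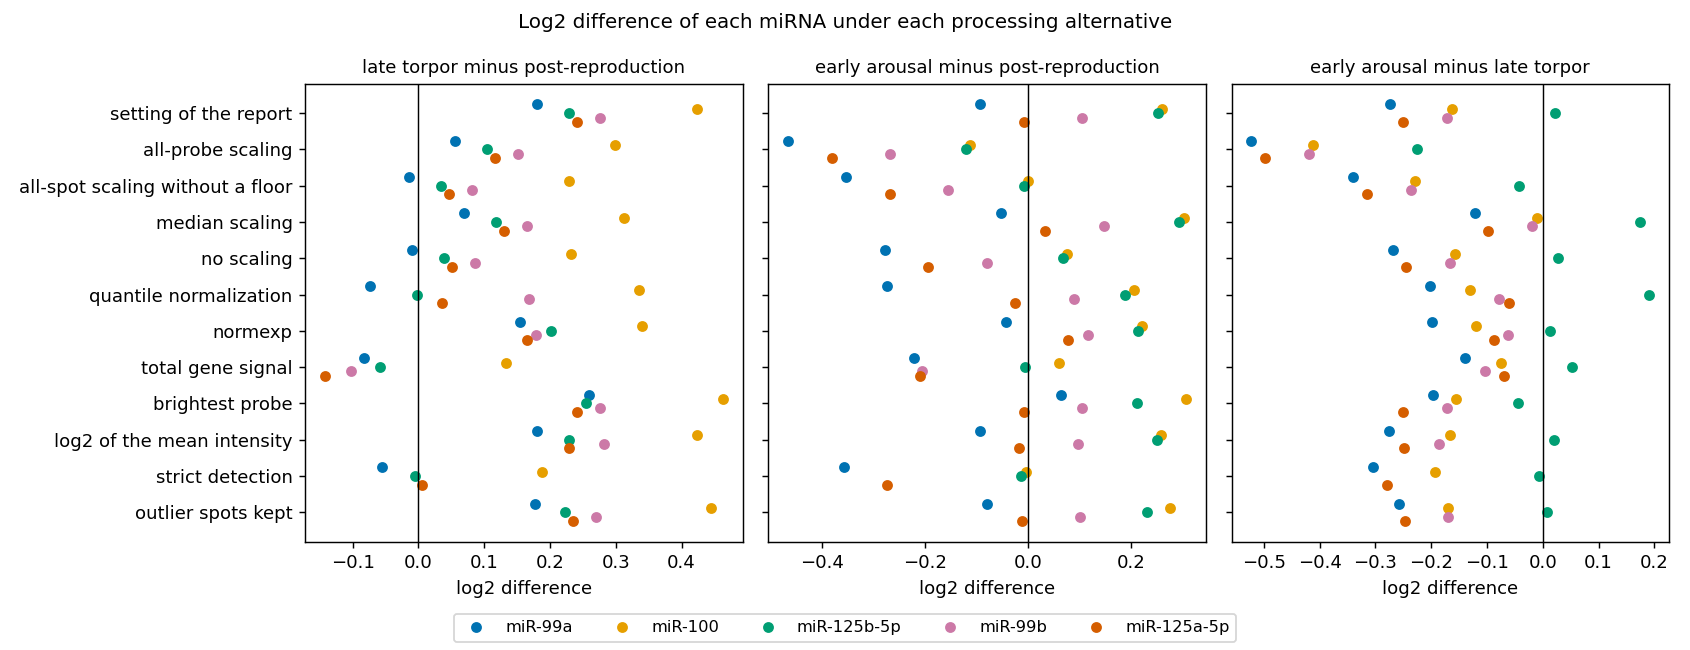
Log2 difference of each of the 5 miRNAs in the 3 comparisons under the setting of the report and 11 processing alternatives, 1 row per setting. miR-100 stays above 0 in late torpor minus post-reproduction (0.13 to 0.46), while miR-99a and miR-125b-5p lie on both sides of 0 there.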

How the data were processed

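Agilent Feature Extraction 9.5.3.1 produced the spot values, per the submitters' processing notes. The deposited intensity of a spot has a fitted spatial background trend subtracted, per the file headers, and no step made arrays comparable with each other. Flags for detection and outliers are other values deposited by the same program. The series table deposited by the authors had this linear, uncentred intensity at each of 12493 spots, with medians of 1.05 (early arousal), 1.15 (late torpor) and 1.13 (post-reproduction). Control spots and outlier spots were left out (3, 6 and 2 of the members' 100 spots per array). No spot was saturated. Spots at or below 0 were set to the array's lowest spot well above background, which touched no detected probe of a member. log2 intensities were averaged per probe and scaled by their 75th percentile among the 250 probes that all 3 arrays detected, detected meaning over 50% of kept spots well above background. A miRNA is the mean of its probes detected on all arrays. Differences carry a spot SE and a 95% interval, and precision is limited by the number of arrays. On simulated arrays (late torpor against early arousal) the 2-fold rule recovered 9 of 10 miRNAs changed 4-fold, with 0 false calls, and the other, a lowered one, was no longer detected on all arrays and so was not measured. The simulation held spot noise only. It therefore does not bear on differences between pools or on differences as small as those of the members. Python 3.11.15, pandas 2.3.3 and limma 3.58.1 (normexp, offset 50) were used. The members, the lists, the rule for named miRNAs (members, their arms, cluster partners, relatives, and the 3 nearest profiles) and the alternatives were chosen with earlier results of these data known.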

Additional observations from a re-analysis of the deposited data

How the results depend on the processing

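No paired analysis was possible because each stage had 1 array. The values below were computed under 11 alternatives and 1 chosen after seeing the data (members with both probes measured). Over 162 values of single members, 28 changed sign and 0 passed the 2-fold rule, and the largest size was 0.52. For late torpor minus post-reproduction the members' median of 0.24 became 0.12 with all-probe scaling, 0.046 with all-spot scaling without a floor, 0.13 with median scaling, 0.050 without scaling, 0.036 after quantile normalization, 0.18 with normexp, -0.083 with the total gene signal and -7.1e-05 with strict detection, which leaves out miR-99b. For early arousal minus post-reproduction the median of 0.11 became -0.27 with all-probe scaling, -0.16 with all-spot scaling, -0.080 without scaling, -0.21 with the total gene signal, -0.14 with strict detection and 0.25 over the 3 members with both probes. For early arousal minus late torpor the median of -0.17 became -0.42 with all-probe scaling, -0.24 with all-spot scaling, -0.019 with median scaling, -0.079 after quantile normalization, -0.088 with normexp, -0.075 with the total gene signal and -0.24 with strict detection. An alternative that shifts whole arrays moves the median of all measured miRNAs by the same amount by construction, and for the rest the cause was not tested. Measured miRNAs past the 2-fold rule numbered 3, 5 and 4 in the 3 comparisons, and 1, 2 and 0 with normexp. They were 5 with strict detection in the first and 10 (2 higher, 8 lower) with all-probe scaling in the second, where 4 were higher and 1 lower in the report. The signal of miR-99b and miR-125a-5p lies close to background, which limits what their differences can show.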
